A study of Mus musculus with 4 samples.

Results

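The cells described here are the presumptive joint interzone cells of the mouse embryonic knee, marked by transcripts of Gdf5. They were taken from droplet single-cell RNA libraries, where a unique molecular identifier (UMI) counts 1 captured transcript. The members were selected on Gdf5 itself: a kept cell with 2 or more Gdf5 UMIs was a member, which gave 2890 of the 44320 kept cells. Gdf5 therefore received no test. All 4 libraries were used, as UMI counts per gene and barcode. A cell was kept when it had 200 to 6000 genes and at most 10% of its UMIs from mitochondrial genes. The E13.5 control library held 12769 barcodes and 100344565 UMIs, of which 12446 barcodes were kept, and the E14.5 control library held 9707 barcodes and 84188147 UMIs, of which 9305 were kept. The Prx1cre;Glut1f/f;Glut3f/+ library held 11690 barcodes and 97110697 UMIs, of which 11264 were kept, and the Prx1cre;Glut1f/f;Glut3f/f library held 11602 barcodes and 91574038 UMIs, of which 11305 were kept. Values of the 4 libraries are listed in this order throughout. Members numbered 1451, 594, 621 and 224 cells. Their median depth was 6457, 6824.5, 6954 and 7219.5 UMIs per cell, against 6148, 7314, 6747 and 6370 in the other kept cells. Members were as deep as the other cells or deeper in 3 libraries and shallower in the E14.5 control.

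The study sampled presumptive knee joint regions of embryonic hindlimbs, digested with collagenase. Each condition had 1 library. The control libraries carried the genotype label No cre, and the number of embryos per library is not given in the sources used here. The mutants carried floxed alleles of the glucose transporter genes Slc2a1 (Glut1) and Slc2a3 (Glut3), recombined by Prx1cre, which drives Cre in limb mesenchyme. The label Prx1cre;Glut1f/f;Glut3f/+ stands for floxed alleles at both copies of Glut1 and 1 copy of Glut3, and the label Prx1cre;Glut1f/f;Glut3f/f for floxed alleles at both copies of each gene. Both mutant libraries were from E14.5.

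The interzone is the condensed band of cells that appears across a limb cartilage template where a joint will form. Its cells stop making cartilage matrix, switch on Gdf5, a secreted Bmp-family ligand, and give rise to articular cartilage, ligament and synovium. Gdf5 transcripts therefore mark joint progenitors, while the flanking chondrocytes keep making matrilin 1 and collagen II.

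Some properties of the libraries bear on every result. Slc2a1 UMIs in the Gdf5-positive cells were 667, 227, 1184 and 416, which is 54.95, 43.4, 217 and 205 counts per 1000000 UMIs (CPM). They were higher in both mutant libraries, the reverse of what the labels would lead one to look for. In the other kept cells Slc2a1 stood at 47.1, 66.2, 347 and 434 CPM, again higher in both mutants. The libraries count tags near the 3′ end of a transcript, so reads outside a deleted exon do not show whether the exon was deleted. Slc2a3 UMIs in members were 48, 18, 22 and 2, or 3.95, 3.44, 4.03 and 0.985 CPM, lowest in the Prx1cre;Glut1f/f;Glut3f/f library. Sex also differed between libraries. The Gdf5-positive cells held 12301, 1, 6142 and 2140 UMIs of Xist, the X-inactivation RNA, and 208, 467, 0 and 0 of Ddx3y, a Y-linked helicase gene. The E13.5 control thus held cells of both sexes, the E14.5 control male cells and both mutant libraries female cells, and sex cannot be told apart from genotype. Pairs of libraries shared 24 to 37 kept barcodes, and no pair shared more than 1 member. Doublets were not removed.

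The share of kept cells that were members was 11.7% at E13.5 (95% exact interval 11.1 to 12.2), 6.38% in the E14.5 control (5.90 to 6.90), 5.51% in the Prx1cre;Glut1f/f;Glut3f/+ library (5.10 to 5.95) and 1.98% in the Prx1cre;Glut1f/f;Glut3f/f library (1.73 to 2.26). Intervals here cover counting error only, and a single library per condition leaves differences between conditions without a test. The intervals of the E14.5 control and Prx1cre;Glut1f/f;Glut3f/+ library overlapped narrowly, and the share in the Prx1cre;Glut1f/f;Glut3f/f library lay apart from all others. Cells marked by genes of another lineage gave backgrounds that depended on the lineage. Of muscle-marked cells, 1.97, 1.09, 0.971 and 0.909% had 2 or more Gdf5 UMIs, at median depths of 9794, 13192, 12800 and 9905.5 UMIs, and in 3 libraries the share of members lay above the 95% interval of this share. Of the 80, 45, 38 and 30 epidermal-marked cells, 12.5, 4.44, 10.5 and 3.33% did, with intervals that contain the share of members in each library. The intervals of macrophage-marked cells at E13.5 (1.34 to 17.5%) and of erythroid-marked cells in the E14.5 control (0.678 to 9.23%) and the Prx1cre;Glut1f/f;Glut3f/+ library (0.0378 to 8.04%) contain it too. In the Prx1cre;Glut1f/f;Glut3f/f library the intervals of all 6 lineages contain it, as does that of these cells pooled (0.348 to 2.05%). Only 1 of 110 muscle-marked cells passed there, with an interval of 0.0230 to 4.96%, although those cells were deeper than the members. At an equal depth of 2000 UMIs per cell the shares were 4.55, 1.89, 1.60 and 0.425% of all kept cells, 0.289, 0.0976, 0.174 and 0.0702% of muscle-marked cells and 3.55, 0.131, 0.181 and 0.736% of epidermal-marked cells. These differences were not tested, and the epidermal share was above that of all kept cells in the Prx1cre;Glut1f/f;Glut3f/f library.

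Gdf5 (ENSMUSG00000038259, GRCm38 chromosome 2, 155941023 to 155945367) stood at 520.1, 399.2, 384.8 and 289.7 CPM in members, with a maximum of 40, 25, 19 and 13 UMIs in 1 cell. Members with exactly 2 Gdf5 UMIs were 32.9, 41.8, 46.4 and 65.6% of all members. Members held 86.6, 74.3, 70.6 and 47.6% of all Gdf5 UMIs of their library's kept cells. The E13.5 control thus held the strongest Gdf5 cells, and most members of the Prx1cre;Glut1f/f;Glut3f/f library sat at the threshold. Cells just outside the threshold, with exactly 1 Gdf5 UMI, numbered 981, 723, 875 and 648. In them the zinc finger factor Osr2 stood at 192, 146, 136 and 56.4 CPM, against 289, 215, 164 and 99.0 CPM in members with exactly 2 Gdf5 UMIs. The bZIP factor Creb5 stood at 218, 175, 157 and 100.5 CPM outside and 334, 241, 248 and 189.9 CPM inside, and the membrane protein gene Tm4sf1 at 68.1, 161, 69.9 and 26.9 CPM outside and 137, 256, 109 and 49.1 CPM inside. All 3 genes were higher just inside the threshold than just outside it in each library, and these steps were not tested. Osr2 went on to 503, 333, 251 and 197 CPM in members with 5 or more Gdf5 UMIs, the top level in each library. The other kept cells therefore include weaker Gdf5 cells, and the folds given for members against them compare strong with weak as well as with negative cells.

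**Figure D1:**
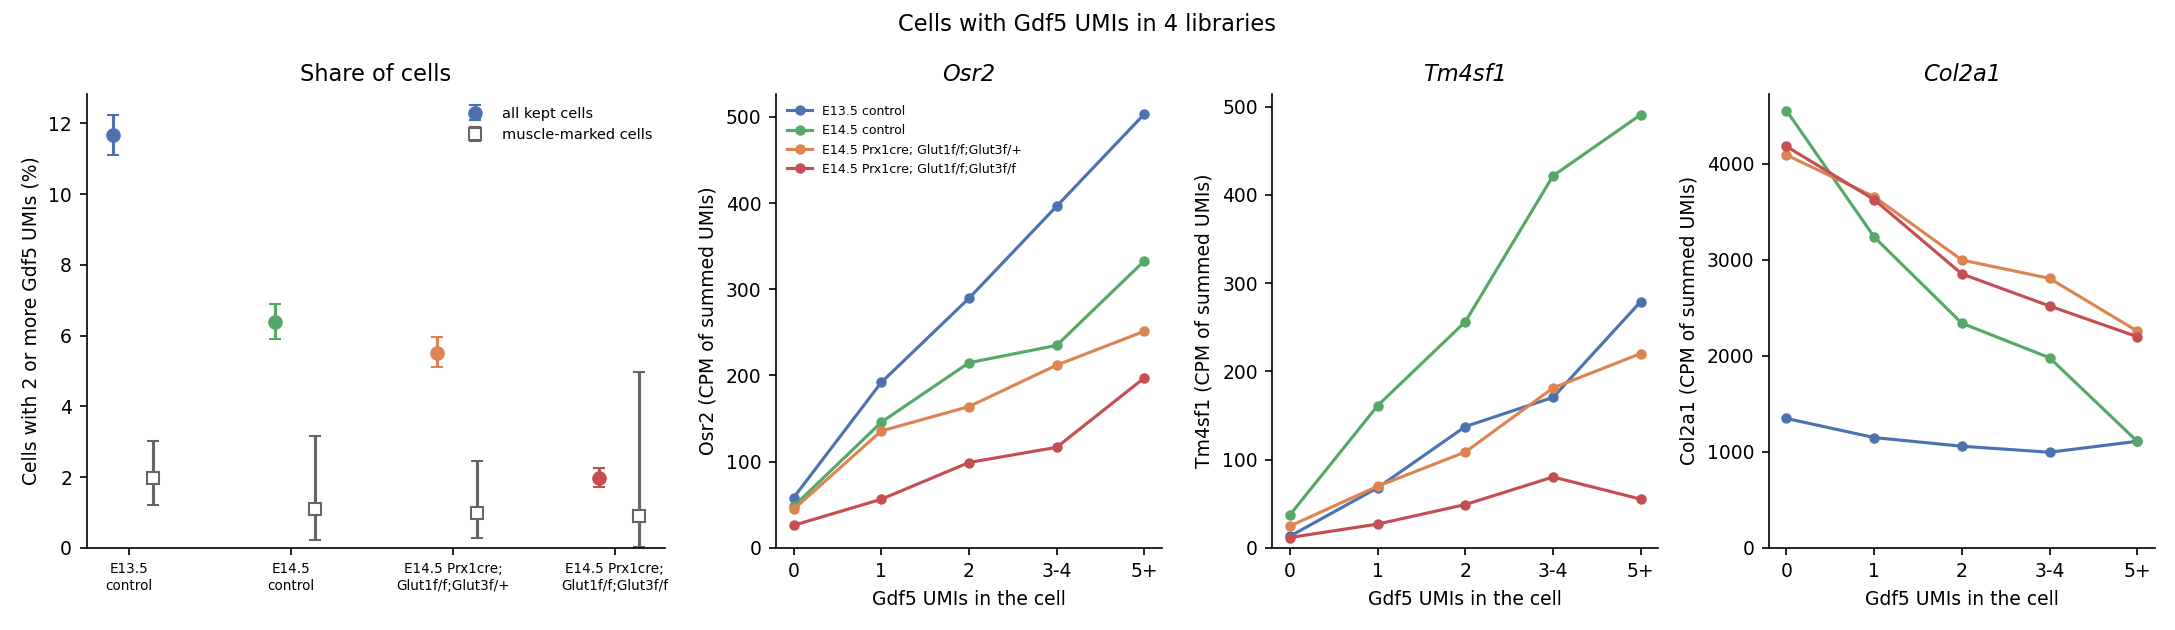
Left, the percentage of kept cells with 2 or more Gdf5 UMIs in each library with its 95% exact interval, beside the same percentage among muscle-marked cells. Right, CPM of Osr2, Tm4sf1 and Col2a1 in cells grouped by their Gdf5 UMIs, where Osr2 climbs from 58.1, 48.0, 44.7 and 26.1 CPM at 0 UMIs with each step.

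Members were compared within each library with all other kept cells by edgeR's quasi-likelihood test on UMI sums, with Benjamini-Hochberg adjustment over all genes tested. Its p values reflect the spread between 4 libraries that also differ in age and genotype. A gene was called at adjusted p under 0.05 and a fitted fold of at least 1.5. Folds below are log2, and positive where members were higher. Osr2 (ENSMUSG00000022330, chromosome 15, 35296098 to 35303305) is a transcription factor needed for joint formation, and it stood at 403, 249, 201 and 111 CPM in the Gdf5-positive cells and 70.6, 56.1, 51.9 and 28.1 CPM in the other cells. Its fitted log2 fold was 2.06 (per-library log2 ratios 2.15 ± 0.26, mean ± SD, n = 4, adjusted p = 1.16e-05), with all 4 libraries in this direction. Creb5 (ENSMUSG00000053007, chromosome 6, 53287270 to 53700376), a transcription factor that drives lubricin in synovial joints, stood at 415, 315, 312 and 203 CPM in the Gdf5-positive cells and 94.6, 64.7, 66.0 and 46.0 CPM in the other cells. Its fitted log2 fold of 2.10 had an adjusted p of 7.96e-07 and the per-library ratios lay at 2.20 ± 0.07 (mean ± SD, n = 4), the tightest of the 3 markers. Tm4sf1 (ENSMUSG00000027800, chromosome 3, 57285611 to 57301988), a tetraspanin-like membrane protein gene, stood at 201, 372, 159.8 and 59.6 CPM in the Gdf5-positive cells and 18.4, 47.8, 28.3 and 12.7 CPM in the other cells. Its fitted log2 fold was 2.74 (per-library log2 ratios 2.78 ± 0.54, mean ± SD, n = 4, adjusted p = 4.36e-05). All 3 were higher in members taken as a whole in each of the 4 libraries, and weakest, in members and other cells alike, in the Prx1cre;Glut1f/f;Glut3f/f library. These genes were chosen with earlier results of these data known, so their levels are no separate check of what the members are. Sfrp2, a secreted Frizzled-related Wnt regulator, and Tgfbi, a secreted matrix protein induced by Tgf-beta, followed with fitted log2 folds of 2.26 (adjusted p = 7.96e-07) and 1.75 (adjusted p = 1.38e-05), higher in members of all 4 libraries.

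Across the transcriptome, 781 of 15539 tested genes (5.03%) were higher in members than in all other kept cells and 825 (5.31%) lower. Leaving out the E14.5 control reduced the higher genes to 508 and leaving out the Prx1cre;Glut1f/f;Glut3f/+ library reduced the lower genes to 531. Without the library term in the model the counts were 305 and 176. A narrower comparison used cartilage cells, with 0 Gdf5 UMIs and 2 or more of Matn1, the matrilin 1 gene (1875, 4302, 4423 and 5417 cells): 1667 of 13428 genes (12.4%) were higher in members and 1064 (7.92%) lower. The last comparison used connective-tissue cells without Gdf5, with 2 or more Sfrp2 UMIs and fewer than 2 of Matn1 (3346, 1749, 2337 and 1835 cells). Here 638 of 13453 genes (4.74%) were higher in members and 692 (5.14%) lower. The cartilage cells gave the most calls and the Sfrp2-positive cells the fewest.

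Besides the 5 markers, 10 named genes were higher in members, each at 50 CPM or more in members of each library. Sulf1, a secreted sulfatase that edits heparan sulfate, stood at 344, 456, 365 and 197 CPM in the Gdf5-positive cells and 62.0, 79.5, 75.2 and 54.2 CPM in the other cells. Its fitted log2 fold was 2.20 (per-library log2 ratios 2.28 ± 0.30, mean ± SD, n = 4, adjusted p = 1.35e-05). Htra1, a secreted serine protease gene, reached a fitted log2 fold of 2.18 (adjusted p = 4.12e-06), and for both genes the lowest library of the members lay above the highest library of the other cells. The hedgehog coreceptor genes Gas1 and Cdon had fitted log2 folds of 1.95 (adjusted p = 2.48e-06) and 1.86 (adjusted p = 2.61e-05). Gas1 stood at 1119, 1070.5, 691 and 396 CPM in the Gdf5-positive cells and 298, 217, 169.9 and 101 CPM in the other cells. Robo1, the Slit receptor gene, reached 1.89 (adjusted p = 1.52e-06) and Efnb2, the ephrin B2 ligand gene, 1.46 (adjusted p = 7.41e-05). Members were higher for all 6 genes in each of the 4 libraries. The remaining 4 genes encode intracellular proteins: Zfp503, a zinc finger repressor gene, at a log2 fold of 1.88 (adjusted p = 4.12e-06), Khdrbs3, a splicing regulator gene, at 1.87 (adjusted p = 3.10e-06), Man1a, a Golgi mannosidase gene, at 1.97 (adjusted p = 8.45e-05), and Dusp1, a MAP kinase phosphatase gene, at 1.51 (adjusted p = 4.21e-05). These calls held with each library left out in turn, in 4 of 4 fits. None of these 10 genes was among the 8 named higher genes against the Sfrp2-positive Gdf5-negative cells. The last of those 8 had a fitted log2 fold of 1.34.

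**Figure D2:**
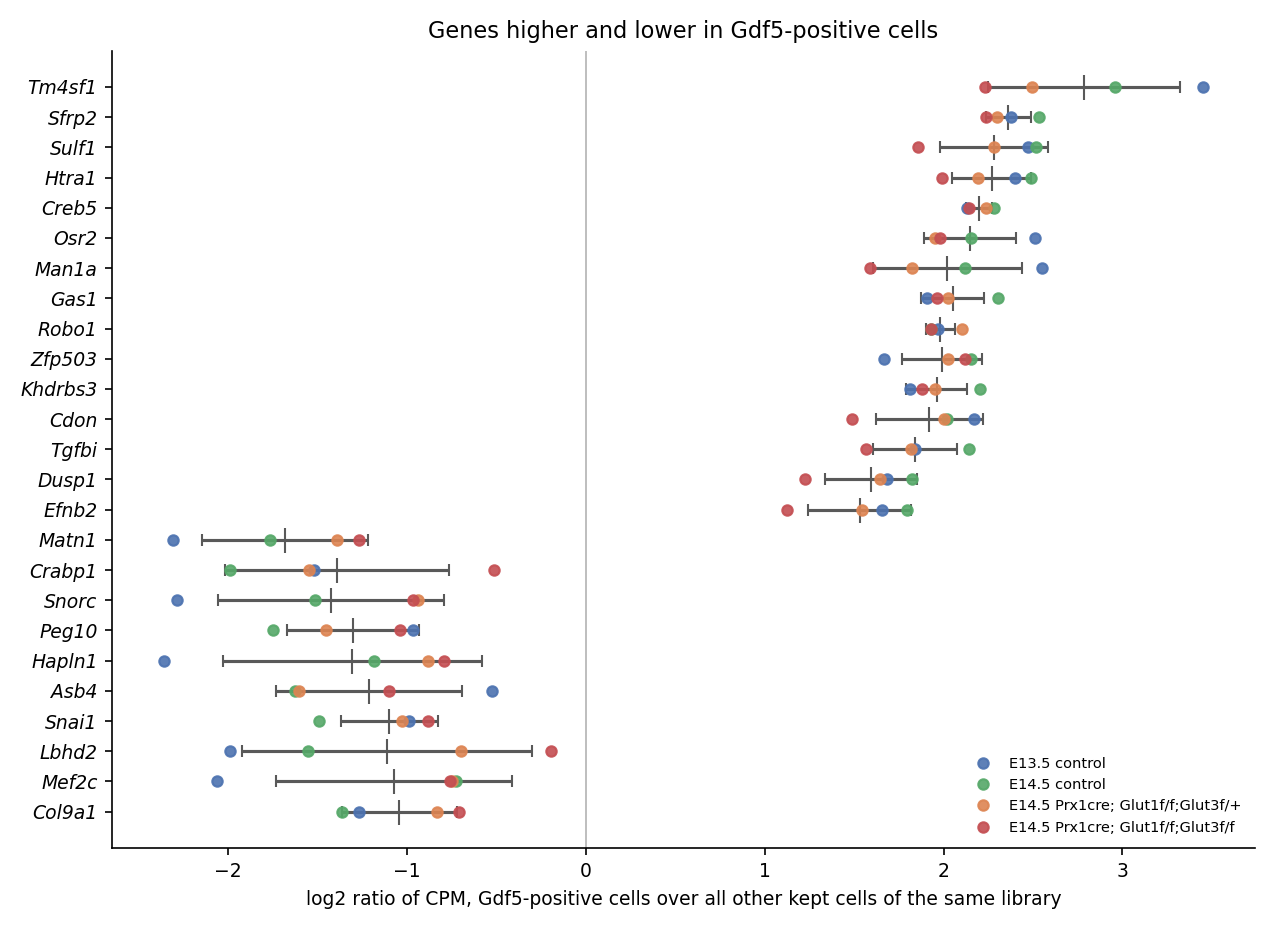
Log2 ratio of Gdf5-positive cells over all other kept cells for 25 named genes, with 1 point per library and the mean ± SD (n = 4). Tm4sf1 and Sfrp2 sit at the top. Matn1 is the first of the lower genes and Col9a1 sits at the bottom.

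Of the 10 named lower genes, which needed 50 CPM in the other kept cells of each library, 5 are cartilage genes. Matn1 stood at 58.0, 407, 426 and 558 CPM in the Gdf5-positive cells and 287, 1386, 1116 and 1345 CPM in the other cells. The fitted log2 fold came to -1.78 (per-library log2 ratios -1.68 ± 0.47, mean ± SD, n = 4, adjusted p = 8.81e-05). Members were lower in each library, and both groups stood higher at E14.5 than at E13.5. Snorc, a chondrocyte proteoglycan gene, had a fitted log2 fold of -1.51 (adjusted p = 9.71e-04), Hapln1, the cartilage link protein gene, -1.39 (adjusted p = 0.00256), and Col9a1, a collagen IX gene, -1.15 (adjusted p = 1.82e-04). Mef2c, a transcription factor of chondrocyte hypertrophy, had -1.19 (adjusted p = 0.0042). The remaining genes have other roles: Crabp1, a retinoic acid-binding protein gene, at a log2 fold of -1.51 (adjusted p = 7.28e-04), Peg10, an imprinted retrotransposon-derived gene, at -1.39 (adjusted p = 2.03e-04), Asb4, a SOCS-box protein gene, at -1.27 (adjusted p = 0.0021), Snai1, a repressor of epithelial genes, at -1.20 (adjusted p = 1.30e-04), and Lbhd2, a gene without a settled role, at -1.19 (adjusted p = 0.00847). All 10 were lower in members of all 4 libraries. Without the library term in the model, Matn1, Crabp1, Snorc, Hapln1, Lbhd2 and Col9a1 were no longer called.

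Joint transcription factors as a list had 10 of 16 tested genes higher in members and 1 lower (median fitted log2 fold 0.70). Besides Creb5 and Osr2, the higher genes were Osr1, Sox4, Barx1, Trps1, Foxc1, Erg, Jun and Lmx1b, and Foxc2, a forkhead gene, was lower. Barx1, a homeobox factor of joint mesenchyme, stood at 349.6, 289, 230.1 and 129 CPM in the Gdf5-positive cells and 85.1, 129, 92.2 and 75.4 CPM in the other cells. edgeR fitted a log2 fold of 1.25 (per-library log2 ratios 1.32 ± 0.53, mean ± SD, n = 4, adjusted p = 0.00224). It was higher in members of each library, and higher against the Sfrp2-positive cells too, at 1.34 (adjusted p = 4.70e-04). Sox4, an HMG-box factor, had 1.28 (adjusted p = 8.15e-06) and Trps1, a GATA-type repressor, 1.15 (adjusted p = 7.07e-04). Calls of Osr1, Lmx1b and Jun depended on which libraries were in the fit: Osr1 lost its call without the E14.5 control or either mutant library, Lmx1b without the E13.5 control or either mutant, and Jun without the E13.5 control. Against the cartilage cells the list had 9 of 16 genes higher and 2 lower, and against the Sfrp2-positive cells 9 and 1 (medians 0.86 and 0.68). By DESeq2, 9 genes were higher and 1 lower against all other kept cells, and 9 and 0 against the Sfrp2-positive cells.

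The wider list of interzone markers, the 5 tested genes Osr2, Creb5, Tm4sf1, Sfrp2 and Tgfbi, was higher in members for 5 of 5 genes against both the other kept cells and the cartilage cells (medians 2.10 and 3.74). Against the Sfrp2-positive cells, 4 of the 4 tested were higher (median 1.21).

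Ligand genes of the Bmp and Gdf family split in members, with 2 of 9 tested genes higher and 4 lower (median 0.30). By DESeq2, 1 was higher and 3 lower. Bmp4 stood at 58.1, 67.2, 45.2 and 38.9 CPM in the Gdf5-positive cells and 28.8, 20.4, 16.2 and 15.8 CPM in the other cells, a fitted log2 fold of 1.28 (adjusted p = 1.71e-04) with 4 of 4 libraries higher in members. Gdf10, the Bmp3b gene, stood at 14.8, 18.7, 25.1 and 23.6 CPM in the Gdf5-positive cells and 44.5, 99.5, 85.5 and 81.3 CPM in the other cells, a fold of -1.97 (adjusted p = 4.21e-05) with 4 of 4 libraries lower. Members thus carried Bmp4 beside Gdf5, and little Gdf10. Gdf6, the closest relative of Gdf5, was higher on 14, 26, 10 and 0 UMIs in members, and lost its call without the E14.5 control (log2 fold 1.11 in place of 1.76) or the Prx1cre;Glut1f/f;Glut3f/+ library, and under DESeq2. Bmp3, Bmp5 and Bmp7 were lower: Bmp3 lost its call without the E13.5 control (log2 fold -0.92 in place of -1.54), Bmp5 without the E14.5 control, and Bmp7 without any 1 of the E13.5 control, the E14.5 control and the Prx1cre;Glut1f/f;Glut3f/+ library. Against the cartilage cells the list had 3 genes higher and 3 lower of 8, and against the Sfrp2-positive cells 3 and 2 of 9 (medians -0.15 and 0.02).

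Bmp antagonist genes had 5 of 10 tested higher in members and 1 lower (median 0.39). Chrdl1, a chordin-like secreted antagonist gene, stood at 39.5, 15.5, 16.8 and 5.91 CPM in the Gdf5-positive cells and 6.30, 4.21, 4.00 and 3.16 CPM in the other cells. This gave a fitted log2 fold of 1.98 (per-library log2 ratios 1.88 ± 0.73, mean ± SD, n = 4, adjusted p = 8.38e-04). Chrd, Grem1, Fstl3 and Twsg1 were higher too, with Chrd losing its call when the E14.5 control was left out. Nog, the noggin gene, was lower at a log2 fold of -1.01 (adjusted p = 0.0483) with per-library log2 ratios of 0.23, -1.29, -1.43 and -2.04, and lost its call without the E14.5 control or either mutant library. Against the cartilage cells 6 of 9 antagonists were higher and 2 lower, and against the Sfrp2-positive cells 2 and 1 of 9 (medians 1.32 and 0.43). Bmp receptor genes showed 0 of 6 called by edgeR, with 4 at an unadjusted p under 0.05 and 0 called by DESeq2 (median 0.24). Bmpr1b alone was higher against the cartilage cells, a call lost under DESeq2 and without either control or the Prx1cre;Glut1f/f;Glut3f/+ library. Against the Sfrp2-positive cells 0 of 6 were called by edgeR, with 3 at an unadjusted p under 0.05 and 0 by DESeq2 (medians for the cartilage and Sfrp2-positive cells 0.32 and 0.09).

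Bmp target genes had 0 of 10 higher and 3 lower in members, namely Atoh8, Smad9 and Msx1 (median -0.44), with Smad9 uncalled without the E14.5 control and Msx1 without the Prx1cre;Glut1f/f;Glut3f/+ library. Against the cartilage cells 9 of 10 were lower (median -0.83). Id1, a helix-loop-helix inhibitor and direct Bmp target, stood there at 416, 248, 285 and 115 CPM in members and 738, 487, 399 and 163 CPM in cartilage cells, a log2 fold of -0.87 (adjusted p = 3.24e-04) with 4 of 4 libraries lower in members. Against the Sfrp2-positive cells, Msx1 alone was higher of 9 tested (median 0.20).

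The activin and Tgf-beta ligand and latency list had 6 of 11 tested genes higher in members and 1 lower (median 0.95). Inhba, which encodes the activin A subunit, stood at 94.2, 142, 96.5 and 40.9 CPM in the Gdf5-positive cells and 10.4, 14.4, 11.2 and 5.60 CPM in the other cells. The fitted log2 fold came to 3.04 (per-library log2 ratios 3.11 ± 0.18, mean ± SD, n = 4, adjusted p = 7.96e-07). Among the listed ligand genes that were tested, which leaves out Gdf5, Inhba was the most enriched in members. It was higher in each library, against the cartilage cells by a log2 fold of 4.70 (adjusted p = 5.23e-06) and against the Sfrp2-positive cells by 2.10 (adjusted p = 3.88e-05). Ltbp3 and Ltbp4, latent Tgf-beta binding protein genes, had log2 folds of 1.27 (adjusted p = 4.12e-05) and 1.32 (adjusted p = 7.27e-05), and Tgfb2, a ligand gene, 0.96 (adjusted p = 3.33e-04). Inhbb and Ltbp1 were higher as well, while Thbs1, a thrombospondin that activates latent Tgf-beta, was lower and lost its call without the E14.5 control. The list had 7 of 10 genes higher and 1 lower against the cartilage cells, and 3 of 10 higher against the Sfrp2-positive cells (medians 1.56 and 0.34). Tgf-beta receptor genes had 0 of 5 called by edgeR in members, with 4 at an unadjusted p under 0.05 and 0 by DESeq2 (median -0.15). Compared with cartilage cells, Tgfbr2 and Tgfbr3 were higher, Tgfbr2 only with the E14.5 control in the fit, and against the Sfrp2-positive cells Tgfbr3 was lower, only with the E13.5 control in the fit (medians 0.43 and -0.21).

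Tgf-beta target genes had 1 of 12 higher in members, Tgfbi (median 0.06). Relative to cartilage cells, 4 of 12 were higher and 1 lower, and against the Sfrp2-positive cells 2 and 2 (medians 0.48 and 0.09). Tagln, an actin-binding protein gene, was higher than in cartilage cells by a log2 fold of 2.77 (adjusted p = 0.00885), in 4 of 4 libraries, which came to 1.95 when the E14.5 control was left out.

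Wnt ligand genes had 4 of 8 tested genes higher in members and 1 lower (median 0.53). Wnt4, a ligand of the early joint, stood at 138, 86.5, 116 and 84.7 CPM in the Gdf5-positive cells and 52.2, 52.2, 61.2 and 60.3 CPM in the other cells. edgeR fitted a log2 fold of 0.82 (per-library log2 ratios 0.88 ± 0.39, mean ± SD, n = 4, adjusted p = 0.00501). Wnt9a, another joint ligand, had a log2 fold of 0.77 (adjusted p = 0.016) and lost its call without the E14.5 control, and Wnt6 lost its call without that library (1.14 in place of 1.79) or either mutant. Wnt11 was higher and Wnt5a lower, the latter only with the E13.5 control in the fit. With cartilage cells as the reference, 3 of 5 ligand genes were higher, and against the Sfrp2-positive cells 1 of 8 was higher and 2 lower (medians 0.59 and -0.28). Secreted Wnt inhibitor genes had 2 of 10 higher in members, Sfrp2 and Dkk3, and 2 lower, Dkk2 and Sfrp5 (median -0.45). Dkk3, a Dickkopf-related secreted protein gene, had 2.11 (adjusted p = 3.40e-06) and was higher in members of 4 of 4 libraries. Sfrp5 lost its call without the E14.5 control (log2 fold -0.76 in place of -1.35) or either mutant library. The inhibitors were 2 higher and 3 lower of 8 against the cartilage cells and 2 and 2 of 7 against the Sfrp2-positive cells (medians -0.02 and 0.25). Wnt target genes had 0 higher and 1 lower of 8 in members, the transcription factor gene Lef1, which lost its call without the E14.5 control and under DESeq2 (median -0.09). Lef1 was also the only target called against the cartilage cells, and against the Sfrp2-positive cells Notum was higher and Nkd2 lower of 7, the latter a call lost on leaving out any library and under DESeq2 (medians -0.07 and 0.19).

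The hedgehog and parathyroid hormone-related loop of the growth plate had 1 of 7 genes higher in members and 3 lower (median -0.61). Ihh, the ligand of prehypertrophic chondrocytes, stood at 6.84, 2.10, 5.68 and 3.94 CPM in the Gdf5-positive cells and 55.2, 14.9, 21.5 and 23.9 CPM in the other cells. This gave a fitted log2 fold of -2.72 (per-library log2 ratios -2.59 ± 0.48, mean ± SD, n = 4, adjusted p = 4.12e-05). Pth1r, the receptor gene, had -1.02 (adjusted p = 1.79e-04), and Ptch1, the hedgehog receptor and target gene, was lower only with the E13.5 control in the fit. Pthlh, the periarticular ligand gene, was higher at 0.66 (adjusted p = 0.00473) with members higher in 4 of 4 libraries. Against all other kept cells, members thus lay low for Ihh and high for Pthlh. The loop had 2 higher and 3 lower against the cartilage cells and 1 higher and 2 lower against the Sfrp2-positive cells, of 7 each (medians -0.49 and -0.21). The gene higher than in the Sfrp2-positive cells was Ihh itself, at 2.64 (adjusted p = 8.72e-04) with 6.84, 2.10, 5.68 and 3.94 against 1.79, 0.318, 0.441 and 0.268 CPM, and Pthlh was not called there. This rests on few UMIs, 83, 11, 31 and 8 in 37, 11, 13 and 7 members, with 64.5% of those in the Prx1cre;Glut1f/f;Glut3f/+ library in 3 cells. The Sfrp2-positive cells also exclude cells with 2 or more Matn1 UMIs, and the members do not.

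Most cartilage matrix genes in members lay between the levels of the narrower groups, which follows in part from how the groups were chosen: the cartilage cells had 2 or more Matn1 UMIs and the Sfrp2-positive cells fewer than 2, while members had no limit on Matn1. Of 16 tested genes, 12 were lower than in all other kept cells and 0 higher (median -0.88). Compared with cartilage cells, 14 of 15 were lower (median -1.79), and against the Sfrp2-positive cells 13 of 15 were higher and 0 lower (median 1.36). Col2a1 (ENSMUSG00000022483, chromosome 15, 97975602 to 98004695), the collagen II gene, stood at 1057, 1923, 2756 and 2704 CPM in members, 3953, 6682, 6420.1 and 5458 CPM in the cartilage cells and 504, 818, 826 and 1031 CPM in the Sfrp2-positive cells. Its log2 fold was -1.65 (adjusted p = 1.59e-04) against the cartilage cells and 1.36 (adjusted p = 2.89e-05) against the Sfrp2-positive cells. Each library put members between both groups. Acan, the aggrecan gene, took the same place, at -1.81 (adjusted p = 2.91e-05) and 1.70 (adjusted p = 1.28e-06). Chondrocyte transcription factors had 0 of 8 higher and 4 lower in members, Sp7, Runx2, Runx3 and Mef2c (median -1.31). Sox9, the master factor of cartilage, was not called against the other kept cells at a log2 fold of 0.23 (adjusted p = 0.258) nor against the cartilage cells, and was higher than in the Sfrp2-positive cells by 0.85 (adjusted p = 1.50e-04), as were Sox5 and Sox6. Relative to cartilage cells, 4 of 7 of these factors were lower and against the Sfrp2-positive cells 3 of 7 higher (medians -1.69 and 0.80). Ucma lost its call against the other kept cells without the E14.5 control.

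Osteogenic genes had 7 of 9 tested lower in members and 0 higher (median -1.45). Alpl, the tissue-nonspecific phosphatase gene, had a log2 fold of -2.23 (adjusted p = 3.80e-04) with 4 of 4 libraries lower. Runx2, Dlx5 and Dlx6 lost their calls without the Prx1cre;Glut1f/f;Glut3f/+ library, and without the E13.5 control the log2 folds came to -1.08 for Sp7 (from -1.82) and -0.85 for Runx2 (from -1.45). With cartilage cells as the reference, 6 of 7 were lower by edgeR and 4 by DESeq2, and against the Sfrp2-positive cells 1 of 6 was higher and 1 lower (medians -1.69 and -0.24). The hyaluronan and lubrication list had 4 of 11 genes higher in members and 0 lower (median 0.27). Prg4, the lubricin gene, stood at 3.63, 9.74, 3.84 and 3.94 CPM in the Gdf5-positive cells and 0.979, 2.38, 2.48 and 1.20 CPM in the other cells, on 44, 51, 21 and 8 UMIs. The fitted log2 fold came to 1.49 (per-library log2 ratios 1.57 ± 0.64, mean ± SD, n = 4, adjusted p = 0.00597). Few members held it in any library: 30, 27, 15 and 6 cells had a Prg4 UMI. Vcan, the versican gene, had 1.32 (adjusted p = 8.60e-06), Tnfaip6, a hyaluronan-binding protein gene, 1.25 (adjusted p = 4.21e-05), and Cd44, the hyaluronan receptor gene, lost its call without the E14.5 control or either mutant library. The same 4 genes were higher than in the cartilage cells (of 10), and 0 of 10 were called by edgeR against the Sfrp2-positive cells, with 3 at an unadjusted p under 0.05 and 0 by DESeq2 (medians 0.59 and 0.16).

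Fibrous matrix genes had 6 of 15 higher in members and 1 lower (median 0.38). Fbn2, the fibrillin 2 gene, had 1.34 (adjusted p = 1.16e-04), and the collagen VI genes Col6a1, Col6a2 and Col6a3 and the collagen genes Col5a1 and Col12a1 were also higher. Col5a1 and Col6a2 lost their calls without the E14.5 control, and Col6a3 without the E14.5 control or the Prx1cre;Glut1f/f;Glut3f/f library. Tnc, the tenascin C gene, was lower only with the E13.5 control in the fit. Compared with cartilage cells, 9 of 14 were higher and 1 lower, and against the Sfrp2-positive cells 1 of 15 was higher and 4 lower (medians 1.18 and -0.48). Small leucine-rich proteoglycan genes had 1 of 9 higher in members and 5 lower (median -1.27). Dcn (ENSMUSG00000019929, chromosome 10, 97479609 to 97518143), the decorin gene, stood at 17.3, 2.86, 11.4 and 4.93 CPM in the Gdf5-positive cells and 90.8, 58.7, 56.2 and 35.5 CPM in the other cells. edgeR fitted a log2 fold of -2.81 (per-library log2 ratios -2.98 ± 0.95, mean ± SD, n = 4, adjusted p = 1.79e-04). Decorin transcripts were thus lower in members of each library, and Aspn, the asporin gene, followed at -2.06 (adjusted p = 5.78e-05). Fmod was the higher gene, only with the E13.5 control in the fit, and Lum lost its lower call without the E14.5 control. The list had 1 higher and 2 lower of 8 against the cartilage cells, and 1 and 4 of 8 against the Sfrp2-positive cells (medians 0.41 and -1.57). Tendon and ligament genes had 2 of 9 higher in members, Mkx and Fmod, and 2 lower, Tnmd and Kera (median -0.14). Scx, the tendon factor gene, was not called against the other kept cells, higher than in the cartilage cells at 2.08 (adjusted p = 4.18e-04) and lower than in the Sfrp2-positive cells at -0.90 (adjusted p = 0.00165). The list had 4 of 8 higher against the cartilage cells and 4 of 9 lower against the Sfrp2-positive cells (medians 1.04 and -0.31).

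Glucose transporter genes had 0 of 7 higher in members and 1 lower, Slc2a1 itself (median -0.41). Slc2a1 (ENSMUSG00000028645, chromosome 4, 119108711 to 119137983) had a log2 fold of -0.63 (adjusted p = 0.0435), with per-library log2 ratios of 0.22, -0.61, -0.68 and -1.08. Members were thus lower in 3 of 4 libraries, and the call was lost without the E14.5 control or either mutant library. Relative to cartilage cells, it was lower at -1.24 (adjusted p = 1.63e-04), and 1 of 7 transporters was higher and 3 lower there, the higher one, Slc2a12, a call lost on leaving out any library and under DESeq2, and with Slc2a4 lower against the Sfrp2-positive cells, a call lost without either control or the Prx1cre;Glut1f/f;Glut3f/+ library (medians -0.18 and 0.13). Slc2a3 (ENSMUSG00000003153, chromosome 6, 122727809 to 122801640) was called in none of the 3 comparisons. Glycolysis genes had 1 of 16 lower in members, the hexokinase gene Hk2, a call lost without the E14.5 control or the Prx1cre;Glut1f/f;Glut3f/f library (median -0.17). With cartilage cells as the reference, 7 of 16 were lower and against the Sfrp2-positive cells 2 of 16 higher (medians -0.60 and 0.31). The 16 genes summed to 8074, 6255, 6019 and 5129.8 CPM in members and 5861, 6544, 7152 and 7811 CPM in the other kept cells, higher in members at E13.5 and lower in members of the 3 E14.5 libraries. This difference between ages was not tested. Hypoxia response genes had 2 of 20 higher in members and 1 lower, 2 and 6 against the cartilage cells, and 6 and 0 against the Sfrp2-positive cells (medians 0.02, -0.31 and 0.44). Ddit4, a hypoxia-induced mTOR inhibitor gene, was higher in members at 0.78 (adjusted p = 0.00253). Car12 was higher only while each of the E13.5 control and both mutants was in the fit, and P4ha1 lower only while the E14.5 control and both mutants were.

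Integrated stress response genes had 1 of 17 higher in members and 4 lower (median -0.42). Atf3, a stress-induced bZIP factor gene, was higher at 1.40 (adjusted p = 4.93e-05), and Mthfd2, a mitochondrial folate enzyme gene, lower at -0.90 (adjusted p = 6.84e-04), each in 4 of 4 libraries. Vldlr lost its call without either mutant library. Compared with cartilage cells, 1 was higher and 10 lower, and against the Sfrp2-positive cells 3 and 1 (medians -0.81 and 0.15). Apoptosis and p53 genes had 1 of 10 higher in members, Trp53inp1, 4 higher against the cartilage cells and 1 against the Sfrp2-positive cells (medians 0.03, 0.24 and 0.16). Immediate early genes had 4 of 16 higher in members, Dusp1, Atf3, Ier3 and Jun (median 0.25). These genes are also induced during tissue digestion, and the part of digestion in them was not tested. There were 6 higher against the cartilage cells and 3 against the Sfrp2-positive cells (medians 0.36 and 0.18). S phase genes had 0 of 15 called by edgeR, with 2 at an unadjusted p under 0.05 and 0 by DESeq2 (median 0.08). G2M phase genes had 0 of 15 called by edgeR, with 11 at an unadjusted p under 0.05 and 0 by DESeq2 (median 0.19). Both cell cycle lists had 0 of 15 called in the 2 narrower comparisons as well (medians 0.04 and 0.08 for S phase, 0.23 and 0.21 for G2M phase). In these, 5 and 0 for S phase against the cartilage cells, 4 and 0 for S phase against the Sfrp2-positive cells, 9 and 0 for G2M phase against the cartilage cells, 11 and 0 for G2M phase against the Sfrp2-positive cells were the counts at an unadjusted p under 0.05 and by DESeq2.

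Of the 6 marker lists of other lineages, 5 summed to less in members than in the other kept cells of each library, and the epidermal list did not. The 8 muscle genes summed to 53.1, 29.2, 50.5 and 7.88 CPM in members and 601, 191, 198 and 36.3 CPM in the other kept cells, and 8 of 8 were lower (median -3.09). The 8 endothelial genes summed to 33.7, 15.1, 24.3 and 22.7 against 63.4, 41.7, 67.6 and 72.5 CPM, with 7 of 8 lower (median -1.40). The 8 macrophage genes summed to 3.38, 2.48, 7.14 and 2.96 against 22.1, 56.9, 59.6 and 41.3 CPM, with 8 of 8 lower (median -3.56). The 6 glial genes summed to 20.7, 11.3, 19.0 and 21.2 against 32.0, 38.8, 45.5 and 39.6 CPM, with 4 of 6 lower (median -1.39). The 8 erythroid genes, led by globin genes, summed to 1729, 4281, 1117 and 19.7 against 9717, 8822, 3728 and 2637 CPM, with 8 of 8 lower (median -2.44). The 6 epidermal genes summed to 22.2, 9.17, 13.4 and 18.2 against 18.1, 12.4, 10.0 and 10.6 CPM, higher in members of 3 libraries, and 0 of the 4 tested were called by edgeR, with 0 at an unadjusted p under 0.05 and 0 by DESeq2 (median 0.13). Krt5 and Krt14 were at 0 UMIs in members of each library. Sex-linked genes had 0 of 6 called, with 1 at an unadjusted p under 0.05 and 0 by DESeq2 (median -0.14). Calls in these lists that ended on leaving out 1 library were those of Cldn5 without either control or the Prx1cre;Glut1f/f;Glut3f/f library, Cdh5 without either mutant, Csf1r without the E14.5 control or the Prx1cre;Glut1f/f;Glut3f/+ library, Hbb-y without the E14.5 control or the Prx1cre;Glut1f/f;Glut3f/f library, Hbb-bh1 without either mutant, Hbb-bs without the Prx1cre;Glut1f/f;Glut3f/+ library, Hba-x without the Prx1cre;Glut1f/f;Glut3f/f library, and Ptprc and Foxd3 without any 1 of the 4. The part of these markers in the other lower genes of members was not tested. Members carrying another lineage's markers were 3.31, 1.52, 2.58 and 2.68% of members, against 13.2, 8.70, 10.4 and 5.68% of the other kept cells.

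**Figure D3:**
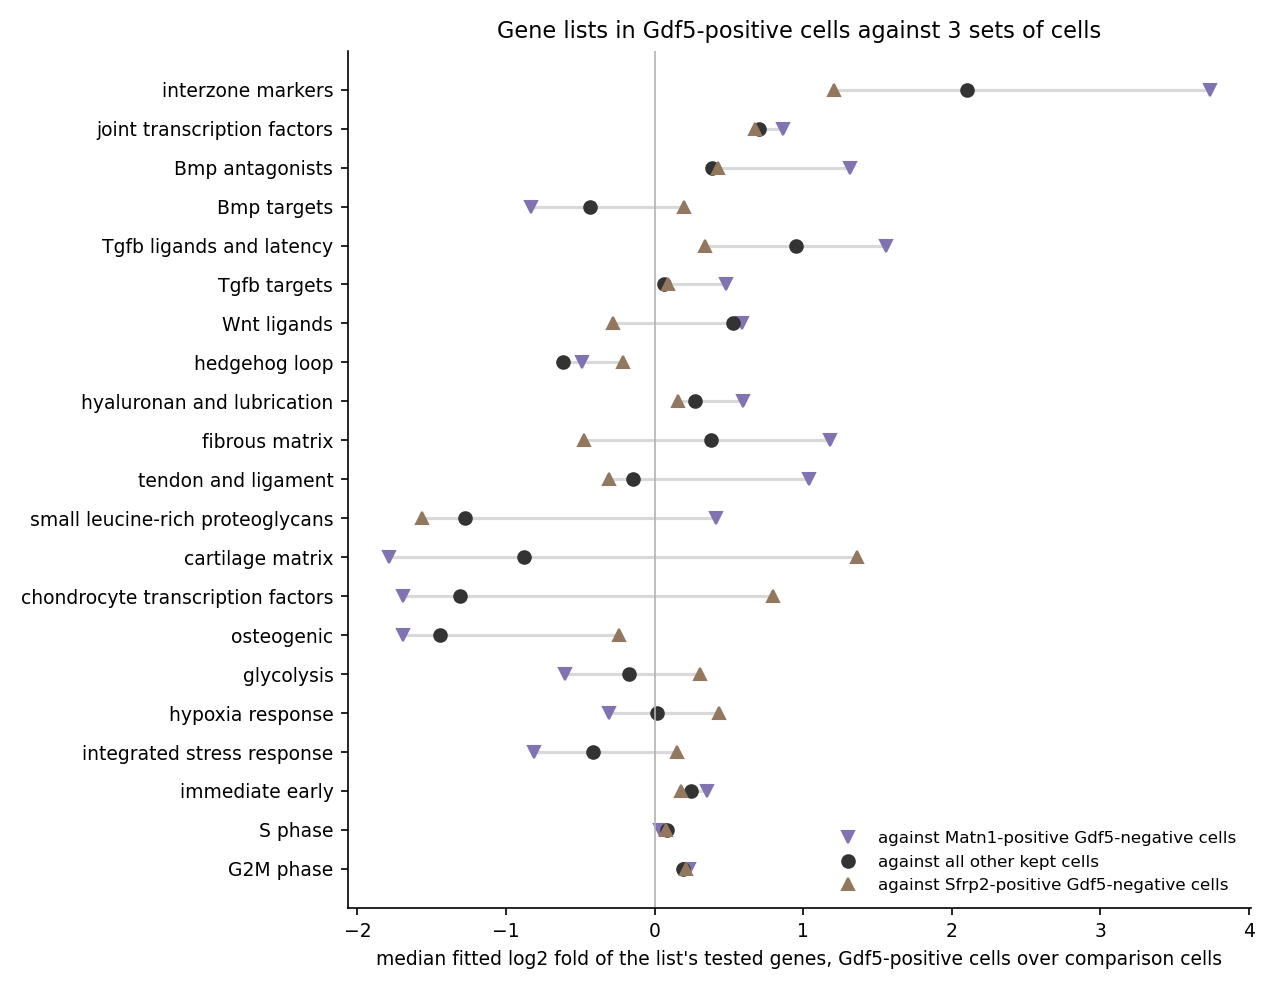
Median fitted log2 fold of 21 gene lists in Gdf5-positive cells over all other kept cells, over the cartilage cells and over the Sfrp2-positive cells. Cartilage matrix sits at -0.88, -1.79 and 1.36, and the median of all tested genes is close to 0 in each comparison.

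Against the cartilage cells, genes already named as higher in members stood out more strongly. Tm4sf1 stood at 201, 372, 159.8 and 59.6 CPM in members and 3.22, 9.32, 5.65 and 3.17 CPM in cartilage cells, a fitted log2 fold of 4.91 (adjusted p = 2.91e-05). Sfrp2 reached 4.01 (adjusted p = 1.35e-05), Htra1 3.75 (adjusted p = 5.21e-05), Creb5 3.74 (adjusted p = 6.60e-06) and Gas1 3.56 (adjusted p = 1.29e-05). Sulf1, Khdrbs3 and Osr2 followed at 3.23 (adjusted p = 5.07e-05), 3.16 (adjusted p = 3.82e-05) and 3.02 (adjusted p = 9.11e-05). All 8 were higher in members of 4 of 4 libraries. The lower genes were led by Epyc, the epiphycan gene of growth cartilage, at 2.88, 27.9, 29.5 and 21.2 CPM in members and 96.2, 279, 232 and 172 CPM in cartilage cells for a log2 fold of -3.66 (adjusted p = 1.15e-04). Gdf10 followed at -2.70 (adjusted p = 2.14e-05), Susd5, a sushi-domain protein gene, at -2.67 (adjusted p = 6.70e-04), Snorc at -2.54 (adjusted p = 0.00243) and Pcolce2, a procollagen protease enhancer gene, at -2.53 (adjusted p = 8.98e-04). Hapln1 had -2.35 (adjusted p = 0.00539), Fgfr3, the receptor gene that restrains chondrocyte growth, -2.32 (adjusted p = 8.17e-05), and Cmtm5, a membrane protein gene, -2.20 (adjusted p = 2.22e-04). These 8 were lower in members of 4 of 4 libraries, furthest in the E13.5 control for 7 of them, Gdf10 being the exception.

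The named genes against the Sfrp2-positive cells were 8 higher and 8 lower in members, Col2a1, Acan and Barx1 among the higher. Sorbs2, a cytoskeletal adaptor gene, stood at 91.9, 91.5, 114 and 105 CPM in members and 20.9, 24.8, 25.1 and 24.6 CPM in Sfrp2-positive cells, a fitted log2 fold of 2.08 (adjusted p = 8.11e-07). Col11a2, a collagen XI gene, reached 1.84 (adjusted p = 2.70e-05), Tm4sf1 1.78 (adjusted p = 0.00233), the nuclear RNA Neat1 1.66 (adjusted p = 3.25e-05) and Scrg1, a chondrogenesis-linked gene, 1.44 (adjusted p = 0.00459). Dcn stood at 17.3, 2.86, 11.4 and 4.93 CPM in members and 145, 197, 176 and 168 CPM in Sfrp2-positive cells, a log2 fold of -4.01 (adjusted p = 5.03e-05) that came to -4.76 without the E13.5 control. Both contrasts held in each library. Egfl6, a secreted matrix protein gene, was lower at -2.65 (adjusted p = 6.64e-05), Igfbp3, an Igf-binding protein gene, at -2.55 (adjusted p = 1.82e-05), and Meox1, a homeobox gene, at -2.52 (adjusted p = 2.89e-05). Rspo3, a Wnt-potentiating ligand gene, had -2.42 (adjusted p = 1.32e-04), the scaffold gene Akap12 -2.41 (adjusted p = 1.35e-04), Crabp1 -2.55 (adjusted p = 3.25e-05) and Amot, a motility and Hippo pathway gene, -2.17 (adjusted p = 7.38e-06). Members were lower for these 8 genes in 4 of 4 libraries.

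The members were not uniform. Of them, 96.8, 90.6, 89.0 and 71.4% had 2 or more Sfrp2 UMIs, against 40.2, 32.6, 35.9 and 25.7% of the other kept cells, and 5.65, 15.2, 23.3 and 32.6% had 2 or more Matn1 UMIs, against 18.1, 52.1, 44.3 and 51.6%. The Sfrp2 share of members was lowest, and the Matn1 share highest, in the Prx1cre;Glut1f/f;Glut3f/f library. Members with fewer than 2 Sfrp2 UMIs (46, 56, 68 and 64 cells) carried Col2a1 at 1956, 6711, 6652 and 4807 CPM, against 1031, 1214, 2220.0 and 1727 CPM in the remaining members (1405, 538, 553 and 160 cells). Osr2 stood at 244, 35.5, 39.4 and 40.4 CPM in the former and 408, 281, 223 and 144 CPM in the latter, and Tm4sf1 at 56.8, 11.8, 6.06 and 6.21 and 205, 425, 181 and 84.4 CPM. The Sfrp2-poor members thus carried more Col2a1 and less Osr2 and Tm4sf1 in each library. The other kept cells stood at 70.6, 56.1, 51.9 and 28.1 CPM for Osr2 and 18.4, 47.8, 28.3 and 12.7 CPM for Tm4sf1. Sfrp2-poor members lay below them for Tm4sf1 in each E14.5 library. For Osr2 they did so in the E14.5 control and the Prx1cre;Glut1f/f;Glut3f/+ library. This split was not tested, nor was whether the Sfrp2-poor members are interzone cells.

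The comparison of control libraries asks how members differ after a day of development. In the 2 control libraries 3479 genes had enough UMIs in members, and 106 (3.05%) were over 2-fold higher at E14.5 and 35 (1.01%) over 2-fold lower. With 1 library per age no test was possible, and the median log2 ratio of E14.5 over E13.5 was -0.04 in members. Of these genes, 64 of the 106 and 22 of the 35 were past 2-fold in the same direction in the other kept cells. Most of the difference by age was thus shared with the cells around them. The markers stayed within 2-fold: the log2 ratio was -0.69 (other kept cells -0.33) for Osr2, -0.40 (other kept cells -0.55) for Creb5, -0.03 (other kept cells -0.19) for Sfrp2 and 0.89 (other kept cells 1.38) for Tm4sf1. Comp, a cartilage and tendon matrix gene, stood at 11.6 CPM at E13.5 and 137 CPM at E14.5 in members, a ratio of 11.8 (95% interval 9.80 to 14.2). Ecrg4, a secreted peptide gene, had a log2 ratio of 4.54 (other kept cells 5.77), Lgals3, the galectin 3 gene, 4.09 (other kept cells 2.34), and Rgs5, a G protein regulator gene, 3.83 (other kept cells 2.09). The ratio was larger in members than in the other cells for Comp, Lgals3 and Rgs5, and smaller for Ecrg4.

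Many matrix genes stood higher in members at E14.5. Cartilage matrix genes had 10 of 14 over 2-fold higher at E14.5 (median log2 ratio 1.498 in members, 1.96 in the other kept cells), with Matn1 at 2.81 (other kept cells 2.27) and Snorc at 3.005 (other kept cells 2.23). Snorc, Comp, Matn3 and Hapln1 among the 10 met the minimum of 50 CPM only at E14.5, which raises the count and the median. Fibrous matrix genes had 9 of 12 (median 1.33 in members, 0.71 in the other cells), with the collagen I gene Col1a1 at 1.69 (other kept cells 1.13), and Tnc and Col6a2 among the 9 met it only at E14.5. The 3 small leucine-rich proteoglycan genes with enough UMIs, Fmod, Lum and Bgn, were over 2-fold higher, and the periostin gene Postn had 2.77 (other kept cells 1.09). Ecrg4, Lgals3, Rgs5, Fmod, Lum, Postn and Hk2 too were under 50 CPM in members at E13.5 and met the minimum only at E14.5, so the minimum itself favoured higher ratios for them. Nog, which met the minimum only at E13.5, was lower at E14.5 by a log2 ratio of -1.69 (other kept cells -0.17) and the enolase gene Eno1 by -1.72 (other kept cells -0.99), and Hk2 was higher by 1.21 (other kept cells 1.56). Histone genes were among the lower genes, with Hist1h2ap at -3.39 (other kept cells -3.36) and Hist1h2ae at -2.08 (other kept cells -2.17). AA465934, Gm10076 and Gsta4 were among them too. AA465934 and Gsta4, like S100a8, S100a9 and Camp below, met the minimum only at E13.5, so the minimum itself favoured lower ratios for them. In members of the 4 libraries AA465934 had 723, 18, 16 and 2 UMIs, Gm10076 15138, 1089, 1554 and 502, and Gsta4 936, 78, 106 and 68. Age and library cannot be told apart in these values. The neutrophil genes S100a8, S100a9 and Camp were also lower in members at E14.5. They came from few cells: the E13.5 members held 1352 UMIs of S100a9 in 7 cells and 647 of Camp in 4 cells, 501 of the latter in 1 cell, and the E14.5 control held 1 and 0. Erythroid genes divided by globin type, with 4 over 2-fold higher and 2 lower of 6 in members. These too came from few cells: 3 cells held 98.3 to 98.9% of the UMIs of the 4 adult globin genes at E14.5, and 3 cells held 68.8% of the Hbb-y and 83.0% of the Hba-x UMIs at E13.5.

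Both mutant libraries were set against the same E14.5 control, so their ratios share its error. They ask how members differ between the Prx1cre libraries with floxed glucose transporter genes and the No cre control. In members of the Prx1cre;Glut1f/f;Glut3f/+ library, 4 of 3276 genes (0.122%) were over 2-fold higher and 25 (0.763%) over 2-fold lower. In members of the Prx1cre;Glut1f/f;Glut3f/f library, 22 of 3346 genes (0.658%) were over 2-fold higher and 85 (2.54%) over 2-fold lower. No test was possible with 1 library each, and the 224 members of the latter gave the widest intervals. The median log2 ratio was -0.102 in members and -0.081 in the other kept cells for the first, and -0.076 and -0.111 for the second, so ratios near 1 carry a scaling shift of this size. In the other kept cells, 2 of the 4 and 6 of the 25 genes, and 12 of the 22 and 27 of the 85, were past 2-fold the same way. Of the higher genes, 2 of the 4 and 5 of the 22 had the opposite sign in the other kept cells. Of the lower genes, 2 of the 25 and 1 of the 85 did. Most of the lower genes were thus lower there too, by less than 2-fold, and the genes were picked for being past 2-fold in members.

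The 4 genes higher in the Prx1cre;Glut1f/f;Glut3f/+ members were Xist, Slc2a1 and the embryonic globin genes Hbb-y and Hba-x. The globin ratios rested on 1 cell, which held 3632 of the 3738 Hbb-y UMIs and 406 of the 415 Hba-x UMIs of these members. Slc2a1 had a log2 ratio of 2.32 there (95% interval of the ratio 4.33 to 5.79) and 2.24 in the Prx1cre;Glut1f/f;Glut3f/f members (4.01 to 5.58), with log2 ratios of 2.39 and 2.71 in the other kept cells. Erythroid genes had 2 of 6 over 2-fold higher and 4 lower in the first library and 4 of 4 lower in the second. The lower ones rested on 3 cells of the E14.5 control members, which held 98.3 to 98.9% of the UMIs of Hbb-bs, Hbb-bt, Hba-a1 and Hba-a2 there. The marker genes were lower in members and in the other kept cells of the Prx1cre;Glut1f/f;Glut3f/f library. For Tm4sf1 the log2 ratios in members were -1.22 and -2.64, for Osr2 -0.31 and -1.17, for Sfrp2 -0.40 and -1.07, for Tgfbi -0.47 and -1.05 and for Creb5 -0.01 and -0.63, in the order Prx1cre;Glut1f/f;Glut3f/+ and Prx1cre;Glut1f/f;Glut3f/f. In the other kept cells they were -0.75 and -1.91, -0.11 and -0.999, -0.17 and -0.77, -0.14 and -0.47 and 0.03 and -0.49, in the same order of genes. Tm4sf1 stood at 201, 372, 159.8 and 59.6 CPM in the 4 libraries, a ratio of 0.160 (95% interval 0.132 to 0.193) in the Prx1cre;Glut1f/f;Glut3f/f members. Creb5 was thus nearly level in the first library and all 5 markers were lower in the second. Members of the second library sat closer to the Gdf5 threshold, and the part of this in their marker levels was not tested. In cells with exactly 2 Gdf5 UMIs, Tm4sf1 stood at 137, 256, 109 and 49.1 CPM in the 4 libraries, Sfrp2 at 1434, 1392, 1172 and 768 CPM and Tgfbi at 289.7, 391, 318 and 233 CPM. Barx1 had log2 ratios of -0.33 and -1.17 in members and -0.48 and -0.77 in the other cells, and Inhba -0.55 and -1.79 and -0.37 and -1.36. Inhba was under 50 CPM in the Prx1cre;Glut1f/f;Glut3f/f members. It met the minimum in that comparison only through the E14.5 control, so the minimum itself favoured a lower ratio for it there.

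Several genes were over 2-fold lower in members of both mutants, and the other cells shared this to differing degrees. Lrrc17, a secreted leucine-rich repeat protein gene, stood at 244 CPM in the E14.5 control members, with log2 ratios of -1.35 and -3.23 in members and -0.19 and -1.19 in the other cells. Tagln had -1.33 and -2.40 in members and 0.23 and -0.32 in the other cells. Krt17, a keratin gene, had -1.91 and -5.57 in members and -0.97 and -2.77 in the other cells, on 368 UMIs in the control, 102 in the Prx1cre;Glut1f/f;Glut3f/+ members and 3 in the Prx1cre;Glut1f/f;Glut3f/f members, a ratio of 0.0210 (95% interval 0.00432 to 0.0619) in the latter. The epidermal list did not follow it, summing to 9.17, 13.4 and 18.2 CPM in the same members. All 3 genes lay lower in the Prx1cre;Glut1f/f;Glut3f/f members than in the Prx1cre;Glut1f/f;Glut3f/+ members. Adamtsl1, a matrix protein gene, had -1.35 and -2.20 in members (other cells -0.40 and -0.60), Pdgfrl, a receptor-like gene, -1.41 and -1.62 (other cells -0.26 and -0.45), and Shisa2, an inhibitor of Wnt and Fgf receptors, -1.29 and -1.48 (other cells -0.68 and -1.20). Lmo1, a LIM-only factor gene, had -1.28 and -1.42 (other cells -0.78 and -0.76) and Cyfip2, an actin regulator gene, -1.25 and -1.78 (other cells -0.73 and -1.55). Scx had -1.13 and -1.06 (other cells -0.13 and -0.66). Of these genes, Krt17, Tagln, Adamtsl1, Pdgfrl, Shisa2, Lmo1 and Cyfip2 were under 50 CPM in members of both mutants. They met the minimum only through the E14.5 control, where they stood higher, so the minimum itself favoured lower ratios for them. The same held for Lrrc17 in the Prx1cre;Glut1f/f;Glut3f/f comparison. The Bmp target gene Id1 had 0.20 and -1.10 in members and -0.29 and -1.32 in the other cells, lower in both groups of the Prx1cre;Glut1f/f;Glut3f/f library.

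Fewer genes were over 2-fold higher than over 2-fold lower in members of each mutant library. Apart from Slc2a1, none of the genes named here passed 2-fold in the Prx1cre;Glut1f/f;Glut3f/+ members. Col15a1, Serpine2 and Eif2s3x passed it in neither library. Mthfd2 had log2 ratios of 0.83 and 1.81 in members and 0.61 and 1.39 in the other cells, and Atf5, a stress-induced bZIP factor gene, 0.83 and 1.79 and 1.22 and 2.12. Asns, the asparagine synthetase gene, had 0.34 and 1.36 in members and 1.32 and 2.30 in the other cells, and Psat1, a serine synthesis gene, 0.38 and 1.31 in members and 0.66 and 1.31 in the other cells. These 4 genes were higher in members and in the other cells alike. Of the integrated stress response list, 0 of 8 genes were past 2-fold in the Prx1cre;Glut1f/f;Glut3f/+ members. In the Prx1cre;Glut1f/f;Glut3f/f members 3 of 10 were higher, namely Mthfd2, Asns and Psat1, and 0 lower. The list medians were 0.11 and 0.45 in members and 0.21 and 0.81 in the other cells. Of the genes named here, Mthfd2, Atf5, Asns, Psat1, Col15a1, Crabp1, Susd5, Eif2s3x and Cdkn1a, like Slc2a1, were under 50 CPM in the E14.5 control members. They met the minimum only through a mutant library, where they stood higher, so the minimum itself favoured higher ratios for them. Col15a1, a collagen XV gene, was higher in members at 0.81 and 0.88 and close to level in the other cells at -0.09 and 0.12. Crabp1 had 0.63 and 1.42 (other cells 0.18 and -0.05), Susd5 0.65 and 1.10 (-0.32 and -0.15), Serpine2, a protease inhibitor gene, 0.66 and 0.86 (0.06 and 0.07) and the X-linked initiation factor gene Eif2s3x 0.58 and 0.80 (0.69 and 0.73). Cdkn1a, the p21 gene, had 0.46 and 1.45 (0.68 and 0.99) and Lum, the lumican gene, 0.38 and 1.70 (-0.12 and 0.13). Glycolysis genes had 0 of 11 past 2-fold in either library (medians -0.01 and -0.31 in members, 0.07 and 0.24 in the other cells). Cartilage matrix genes had 0 of 14 past 2-fold in either (medians 0.29 and 0.43 in members, -0.28 and -0.12 in the other cells). Matn1-positive members were more frequent in both mutants, and the part of this in the ratios of members, Susd5 and Crabp1 included, was not tested.

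**Figure D4:**
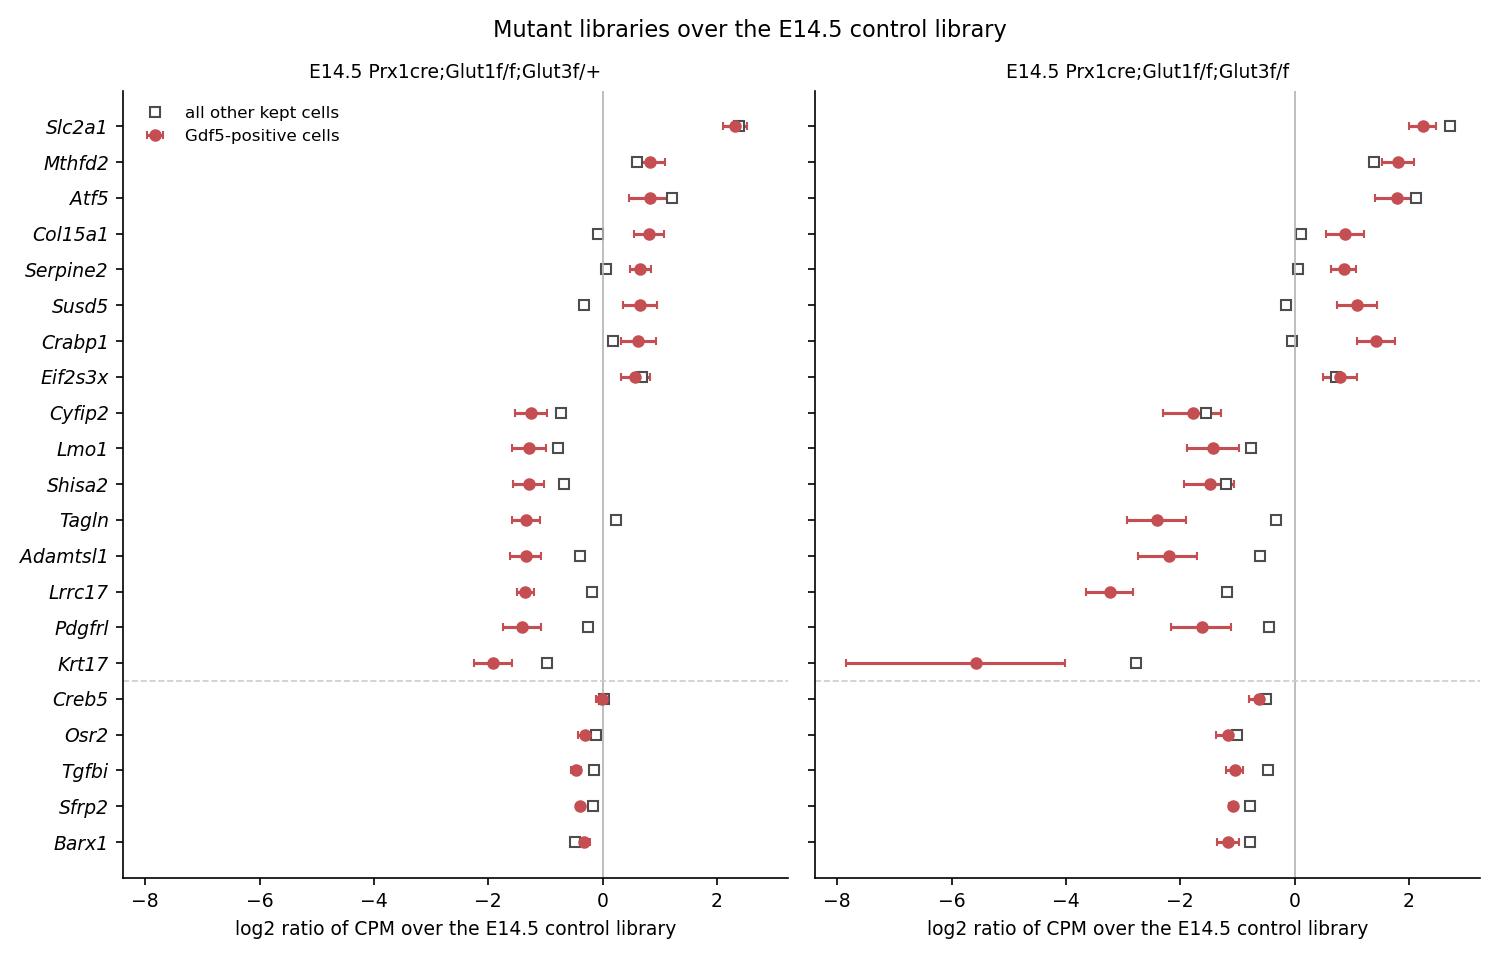
Log2 ratio of each mutant library over the E14.5 control in Gdf5-positive cells (points with 95% exact intervals) and in all other kept cells, for 16 named genes. Under the dashed line are Creb5, Osr2, Tgfbi, Sfrp2 and Barx1, and Tm4sf1 is not drawn. Krt17 and Lrrc17 lie furthest below 0 in the Prx1cre;Glut1f/f;Glut3f/f members.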

How the data were processed

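The UMI count matrices of the 4 libraries, which the authors deposited after cellranger 6.1.2 and which record 10x 3′ v3.1 chemistry, were read as they were. The submitters' notes give mm10 and Seurat 3. Members, comparison cells and gene lists were chosen with earlier results of these data known. The gene range for a kept cell was 200 to 6000, and its limit on mitochondrial UMIs was 10%. UMIs were summed over members and over comparison cells in each library, and the 8 sums were fitted in edgeR 4.0.16 (limma 3.58.1, R 4.3.3) with TMM scaling, a library term, the edgeR minimum-count filter at 10, the quasi-likelihood test and Benjamini-Hochberg adjustment. DESeq2 1.42.0 was an alternative. Printed CPM are UMIs per 1000000 of a sum, per-library log2 ratios use them, and a count of 0 was set to a floor of 3 UMIs. Between conditions, a gene needed 50 UMIs and 50 CPM in members of either library, and ratios have exact conditional binomial 95% intervals. Shares have exact binomial (Clopper-Pearson) intervals and were also computed at 2000 UMIs per cell. Named genes were the called genes with the largest fitted folds, at 50 CPM or more in the higher group and on 1 side in each library: 15 higher and 10 lower against all other kept cells, and 8 each way against the other groups. Between conditions they were the 8 largest ratios each way, or the 8 largest shared by both mutants with the minimum met in either comparison. Erythroid, mitochondrial, Y-linked and sex-linked list genes were set apart. The fit was tested on simulated counts with known changes. The 35 lists were 28 by role, 6 of other lineages and 1 sex-linked, and some list genes are not reported here. A cell of another lineage had 3 or more UMIs over a lineage list, or at least 5% erythroid UMIs. Settings also tried were other Gdf5 thresholds, filters, depths, scalings, and each library left out. Identifiers matched GENCODE M21 (GRCm38) for 32235 of 32285 genes. Python 3.11.15, numpy 2.4.6, pandas 2.3.3, scipy 1.17.1 and matplotlib 3.10.9 were used.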

Additional observations from a re-analysis of the deposited data

Results flagged for a closer look

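Among the 57 named-gene values examined for a library that stands apart from the other 3, 4 did, each in the E13.5 control, and chance alone flags about 1 in 20. Mef2c against all other kept cells had a log2 ratio of -2.06 there, against -0.72, -0.75 and -0.76 in the E14.5 libraries. Epyc against the cartilage cells had -5.06, against -3.32, -2.98 and -3.02. Hapln1 against the cartilage cells had -4.32, against -1.80, -1.61 and -1.29. Scrg1 against the Sfrp2-positive cells had 2.73, against 1.04, 1.04 and 0.84. Since the E13.5 control is also the only library of its age, age and library cannot be told apart here.

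Of 269 listed or named genes with at least 10 UMIs in members of each library, 2 lay on opposite sides of the other kept cells at the 2 ages by at least 1.5-fold. Trib3, a stress-response pseudokinase gene, had a log2 ratio of 1.34 at E13.5 and of -1.29, -1.24 and -0.83 at E14.5. Notum, a Wnt-inactivating enzyme gene, had -2.61 at E13.5 and 0.91, 1.36 and 1.95 at E14.5. The difference between the ages was not tested for either gene.

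Barcodes left out for having over 6000 genes also carried Gdf5. Of them, 36.1% had 2 or more Gdf5 UMIs at E13.5 (66 of 183), 25.8% in the E14.5 control (23 of 89), 21.3% in the Prx1cre;Glut1f/f;Glut3f/+ library (17 of 80) and 16.4% in the Prx1cre;Glut1f/f;Glut3f/f library (11 of 67). Whether these barcodes hold more than 1 cell was not tested, and their difference from kept cells was not tested.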

How the results depend on the processing

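The count of genes higher in members against all other kept cells was 305 without the library term, and 508 to 800 with 1 library left out. The count of lower genes was 176 without the library term, and 531 to 820 with 1 library left out. The drop without the library term follows from its construction, since differences between libraries then enter the error.

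Of the 151 named or list genes called in that comparison, the same calls came from DESeq2 for 144, from RLE scaling for 150, without the low-count filter for 148 and without the library term for 63. They came for 120 with members at 1 or more Gdf5 UMIs, for 141 at 3 or more, for 149 without cells of exactly 1 Gdf5 UMI, for 132 at 4000 to 12000 UMIs and for 141 under the stricter cell filter. Leaving out 1 library kept 125 to 139. With cells of another lineage left out 113 were kept, and 4 turned in sign: Cldn5 to 0.00931, Csf1r to 0.58, Hba-x to 0.12 and Myog to 0.0409. Removing cells by these same markers takes out UMIs of these genes by construction, and why their signs turned was not tested. Alas2 turned to 0.24 under the stricter filter, and the cause was not tested. Against the cartilage cells 137 to 148 of 159 genes kept their calls under each setting, and against the Sfrp2-positive cells 85 to 95 of 102. DESeq2, added for these after the data were seen, kept 148 and 91.

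The share of members was 19.5, 14.2, 13.3 and 7.71% at 1 or more Gdf5 UMIs and 7.83, 3.72, 2.96 and 0.681% at 3 or more, and 4.55, 1.89, 1.60 and 0.425% at 2000 UMIs per cell. These follow from the threshold and depth by construction. With cells of another lineage left out it was 12.8% at E13.5 and 5.96% in the Prx1cre;Glut1f/f;Glut3f/+ library, and under the stricter filter 12.9% at E13.5. The order of the libraries was the same in each setting.

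Genes over 2-fold higher in the Prx1cre;Glut1f/f;Glut3f/+ members, 4 at the chosen setting, were 10 with members at 3 or more Gdf5 UMIs, 2 at 4000 to 12000 UMIs, 2 with cells of another lineage left out and 7 in members with 2 or more Sfrp2 UMIs. The last setting was added after the data were seen. The cause was not tested.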

Other observations

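Several limits apply. Each condition had 1 library, so differences by age or genotype have no test and cannot be told apart from differences between embryos, sex or preparation. Members were selected on a single transcript with few UMIs, so weak Gdf5 cells fell among the other cells, and free RNA can lift a cell over the threshold. Genes that vary with Gdf5 are favoured by this selection. Immediate early genes can be induced by digestion. The 4 libraries of the test differ in age and genotype, and its p values carry that spread. Doublets were not removed.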
